A study of Neurospora crassa with 33 samples.

Results

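The 150 genes with the lowest ribosome density in wild-type (WT) *Neurospora crassa* were described in WT strains and in strains that lack *cpc-3*. They were chosen by a rule on the WT libraries alone. Of 9729 genes, 3948 had a CDS of 300 to 6000 nt and a mean mRNA level of at least 20 TPM over the 4 WT mRNA libraries, and the 150 with the lowest mean log2 density over the 4 WT strains were taken. TPM stands here for the midpoint of a gene's deposited FPKM interval, scaled to a total of 1000000 per library. Ribosome density is the RPF level of a gene, in TPM, over its mRNA level, in TPM, with 0.1 added to both.

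The study measured ribosome-protected fragments (RPFs) and mRNA in mycelia, to examine how codon usage and CDS length relate to translation elongation and initiation. The Δ*cpc-3* strains carry a deletion of *cpc-3*, which encodes the kinase that phosphorylates eIF2α, and the WT strains have the gene. Every strain of both genotypes also carried 1 of 4 Flag-tagged EDP reporters, driven by the *ccg-1* promoter and targeted to the *csr-1* locus. The reporters 1xWT-EDP, 3xWT-EDP, 1xOPT-EDP and 3xOPT-EDP hold 1 or 3 copies of the NCU05784 CDS with its own (WT) or optimized (OPT) codons. The cassette was placed there by double recombination, which interrupts *csr-1*, and the study's methods state that transformants were selected for cyclosporin resistance and purified to homokaryons. All cultures grew in glucose medium under constant light, with cycloheximide added only to the lysis buffer. There were 13 RPF and 4 mRNA libraries from Δ*cpc-3* strains, and 12 RPF and 4 mRNA libraries from WT strains. The 4 reporter backgrounds served as the 4 replicates of each genotype.

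A ribosome that is translating an mRNA shields a short fragment of it from nuclease, and these fragments mark how many ribosomes a CDS carries. An mRNA with many copies and few footprints may be translated at a low rate, carry ribosomes that move quickly along it, or be in part kept away from ribosomes. Density cannot separate these. It also cannot separate them from mRNA reads of an overlapping gene, or from footprints lost in mapping. CPC-3 is the *Neurospora* homolog of the yeast kinase GCN2, which lowers translation initiation when it phosphorylates eIF2α.

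Depth and identity of the libraries were as follows. The files gave 1220397 to 6956739 CDS reads per Δ*cpc-3* RPF library and 2799749 to 10032959 per WT RPF library, and 1263100 to 1770176 per Δ*cpc-3* mRNA library and 944465 to 1199149 per WT mRNA library. The deleted gene *cpc-3* had an RPF level of 0 to 0.379 TPM over 13 libraries labelled Δ*cpc-3* and of 12.1 to 14.3 TPM over 12 labelled WT. In mRNA libraries it stood at 0.407 to 1.27 TPM for Δ*cpc-3* and at 18.2 to 26.2 TPM for WT. No replicate pair was alike within sampling noise. Replicate 4 of the Δ*cpc-3* 1xWT-EDP strain stood apart from its 3 sister libraries, with a mean chi-square of 14.4 to 28.9 per gene against 2.01 to 2.69 among those 3. Replicate 3 of each WT strain stood apart less, with 4.79 to 6.40 against replicates 1 and 2, which gave 2.03 to 2.24 against each other. Results are therefore given without these replicates where they change. The chi-square compared libraries within a strain only, so it does not show which of them is unlike the other strains. Reads of *csr-1* were present although that gene is described as interrupted. Its RPF level was above 10 TPM, a level set after the values were seen, in 5 of 13 Δ*cpc-3* and 9 of 12 WT libraries. It was at most 1.46 TPM in the others, and all 8 mRNA libraries held *csr-1* at 81.4 TPM or more. Levels over a whole CDS do not show whether the gene was intact, and this was not tested. Whether the replicates of a strain came from 1 transformant is not given in the sources used here, so the strains used as replicates below carry that doubt. No density could be had without libraries that hold *csr-1* reads, since all mRNA libraries do. Leaving out replicate 3 removes 4 of the 5 Δ*cpc-3* and 1 of the 9 WT RPF libraries above 10 TPM. The median gene had a log2 density of -0.60 to -0.52 in the Δ*cpc-3* strains and of -0.28 to -0.18 in the WT strains, and densities were therefore compared relative to this median.

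The chosen genes spanned a wide range in WT, from almost no footprints to a density just below that of many other genes. Their WT log2 density ran from -10.11 to -0.89 with a median of -1.26, while the other 3798 genes open to the rule had a median of -0.14. These values are what selected the genes and were not tested. Of the 150, 12 lay below -4, 16 between -4 and -2, 82 between -2 and -1, and 40 above -1. The last genes inside were NCU07716, the molybdopterin synthase gene NCU08375, NCU09541, *nit-2* and NCU07305, at -0.91, -0.91, -0.90, -0.90 and -0.89. The first outside were NCU16676, NCU00432, *stk-57*, NCU02528 and *mig-2*, at -0.89, -0.89, -0.89, -0.88 and -0.88. The edge of the set is thus a cut through a continuum, and the lowest 150 in 1 WT background alone held 103 to 106 of the members.

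**Figure D1:**
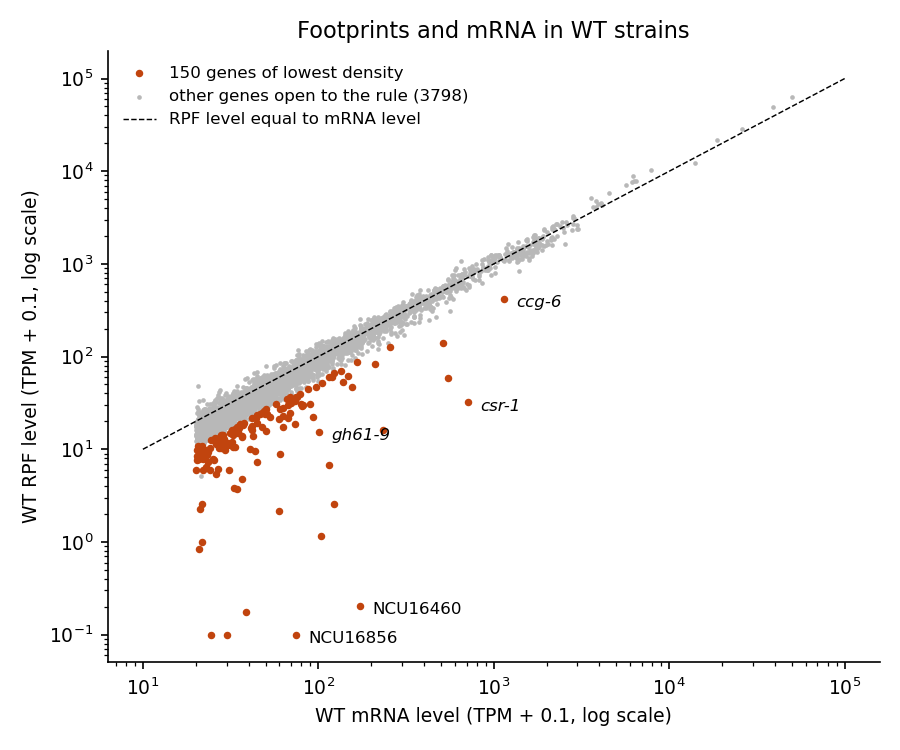
WT RPF level against WT mRNA level, each in TPM plus 0.1 on a log scale, as means over the 12 RPF and 4 mRNA WT libraries. The 150 members (orange) form the lower edge of the cloud of the other 3798 genes open to the rule (grey) and the points beneath it, with 3 members at 0 RPF TPM at the bottom and *ccg-6* the member with the highest mRNA level, 1136 TPM.

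As a group the members held much more of the mRNA pool than of the footprint pool. In WT this follows from the rule, which chose them for few footprints per mRNA in the same libraries. They made up 2.12% ± 0.16 of all mRNA TPM in Δ*cpc-3* strains and 1.06% ± 0.079 in WT strains (SD, n = 4 libraries each). Of the RPF TPM they took 0.466% ± 0.0418 in Δ*cpc-3* (SD, n = 13) and 0.342% ± 0.0144 in WT (SD, n = 12). In whole mycelia, fewer cells that express a gene and less RNA per cell cannot be told apart. Their mRNA was not abundant, with a median WT level of 36.1 TPM against 60.4 TPM for the other genes open to the rule. The reads behind a member were few. The median member had 65.5 RPF reads per Δ*cpc-3* library and 122 per WT library, and 132 mRNA reads per Δ*cpc-3* library and 63.6 per WT library. The SD of log2 density over 4 strains had a median of 0.29 in Δ*cpc-3* and 0.29 in WT for the members, and of 0.20 in Δ*cpc-3* and 0.21 in WT for the other genes.

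Length did not set the members far apart from other genes. Their CDS had a median of 1390 nt and that of the other 3798 genes 1233 nt, and 21 of 150 (14.0%) against 531 of 3798 (14.0%) were under 600 nt. In the NC12 assembly table the part of the gene outside the CDS, that is introns and untranslated regions, had a median of 1191 nt for members and 1031 nt for the others. A gene symbol was given to 29 members (19.3%) and to 699 of the others (18.4%). Identifiers of NCU16000 and above were more frequent, with 13 members (8.67%) against 48 others (1.26%). The span of 35 members (23.3%) and of 1158 others (30.5%) overlapped another annotated gene. These shares describe the set and were not tested.

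The lowest end of the set held mRNAs with next to no footprints. NCU16460, the lowest of all, had 475, 565, 586 and 568 mRNA TPM in the Δ*cpc-3* strains and 220, 214, 114 and 145 in the WT strains, in the order 1xWT-EDP, 3xWT-EDP, 1xOPT-EDP and 3xOPT-EDP. Its RPF level was 0 to 4.80 TPM (median 0) over the 13 Δ*cpc-3* libraries and 0 to 0.828 TPM (median 0) over the 12 WT libraries. That is a total of 8 reads in Δ*cpc-3* and 6 reads in WT. In the libraries at 0, 3 reads would be worth 0.570 to 2.96 TPM in Δ*cpc-3* and 0.404 to 1.47 TPM in WT.

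NCU16856, NCU16641 and NCU16306 had no read in any of the 12 WT RPF libraries. NCU16856 had 214, 308, 207 and 218 mRNA TPM in Δ*cpc-3* and 88.2, 78.8, 78.6 and 52.2 in WT. Its RPF level was 0 in 11 of 13 Δ*cpc-3* libraries and at most 11.8 TPM. A count of 0 is also obtained at low levels, and 3 reads over the 12 WT libraries together would be 0.143 TPM. The WT density of NCU16856 is therefore at most 0.00192, and those of NCU16641 and NCU16306 are at most 0.00443 and 0.00489. Their fitted log2 values depend on the 0.1 that was added.

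NCU16318, annotated with an integral membrane term, had 344, 465, 262 and 410 mRNA TPM in Δ*cpc-3* and 54.4, 36.1, 30.5 and 32.5 in WT. Its footprints came to 12 reads over the 13 Δ*cpc-3* libraries and 1 read over the 12 WT libraries. The mRNA groups of NCU16318 did not overlap, while its RPF level was 0 in 9 of 13 Δ*cpc-3* and 11 of 12 WT libraries. Of the 20 lowest members, 6 overlap another gene in the assembly table, where 23.3% of all members and 30.5% of the other genes open to the rule do. NCU16318 shares 445 nt with the member NCU09085, whose mean mRNA level was 293 TPM in Δ*cpc-3* and 89.7 TPM in WT. NCU16460 shares part of its span with NCU00499, which had 294 mRNA TPM in WT. The sources used here do not say whether reads were counted by strand, and the part of such overlaps in the mRNA values was not tested.

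The gene *csr-1*, which encodes a cyclophilin, a peptidyl-prolyl isomerase bound by cyclosporin, ranked 10th and is the locus that every reporter was targeted to. Its mRNA level was 235, 251, 154 and 81.4 TPM in the Δ*cpc-3* strains and 603, 832, 709 and 713 TPM in the WT strains. Its footprints differed widely between libraries of a strain. Among Δ*cpc-3* libraries they were 1.46, 29.3, 27.3 and 0.579 TPM for replicates 1 to 4 of 1xWT-EDP. They were 0, 0 and 53.5 TPM for replicates 1 to 3 of 3xWT-EDP, 0.325, 0.690 and 30.1 TPM for 1xOPT-EDP, and 0.922, 0.919 and 16.4 TPM for 3xOPT-EDP. High values therefore stood in replicate 3 of all 4 Δ*cpc-3* strains and in replicate 2 of 1 strain.

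In the WT libraries the high values of *csr-1* stood in replicates 1 and 2. There 1xWT-EDP had 37.7, 27.6 and 0.466 TPM, 3xWT-EDP had 43.6, 71.2 and 0.832 TPM, 1xOPT-EDP had 58.2, 54.9 and 0.806 TPM, and 3xOPT-EDP had 38.9, 39.1 and 11.7 TPM. In the 2 Δ*cpc-3* libraries at 0, 3 reads would be 0.962 to 1.15 TPM, so these libraries cannot be told from those under 1 TPM. The strain means hid these differences, with a log2 density of -3.85 ± 0.12 in Δ*cpc-3* and -4.50 ± 0.23 in WT (SD, n = 4 strains). Without replicate 3 the Δ*cpc-3* value relative to the median gene was -6.96, against -3.30 with it. The sources used here do not say which culture of a strain gave the mRNA library, so the *csr-1* density joins libraries that differ among themselves.

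**Figure D2:**
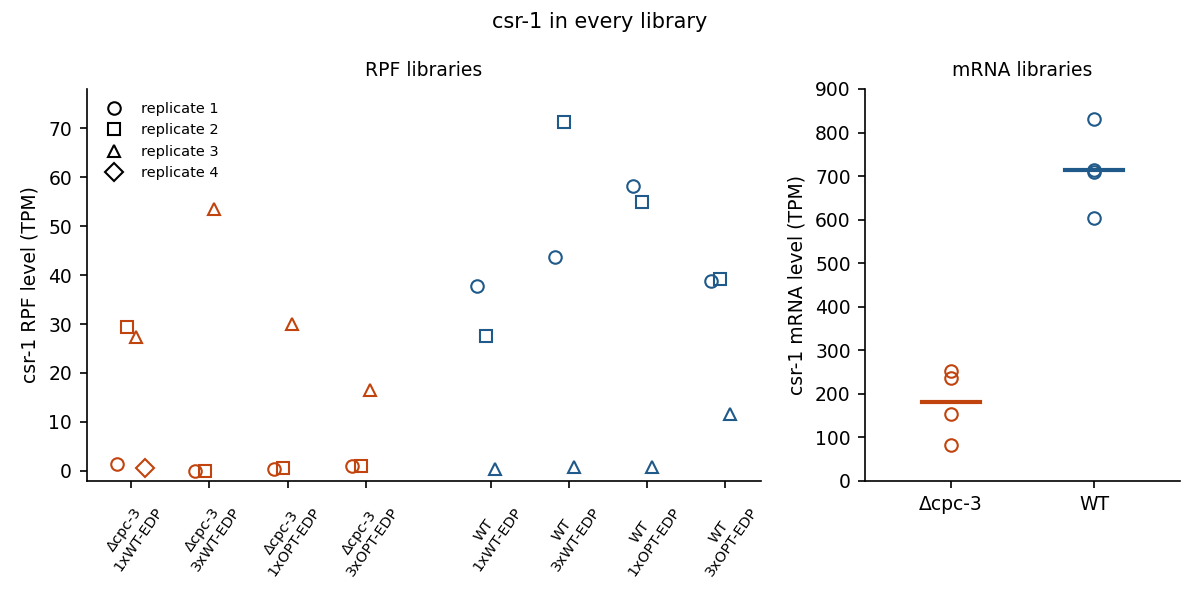
RPF level of *csr-1* in TPM in each of 25 RPF libraries by strain (left, marker shape for the replicate number) and mRNA level in TPM in each of 8 mRNA libraries (right, bar for the mean). RPF values ran over 0 to 53.5 TPM in Δ*cpc-3* and 0.466 to 71.2 TPM in WT, and in WT 3xOPT-EDP the lowest library, at 11.7 TPM, was well above the lowest of the other WT strains.

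Whether the low density of these genes is also found in cells without *cpc-3* was tested on the Δ*cpc-3* libraries, which the rule did not use. In them 140 of the 150 members lay below the median gene. The test was for a difference from that gene, and to pass, a gene also needed a mean at least 2-fold below it. Of the members 102 (68.0%) passed (limma over 4 strains, Benjamini-Hochberg adjusted p at most 0.00925 for those called). Over all 6878 genes tested, 14.0% passed, and over the 3948 genes open to the rule 4.69%. The members' median log2 density in Δ*cpc-3* was -2.02 and that of the other genes open to the rule -0.27. All 20 of the lowest members passed. The count was 101 to 107 when single replicates or reporter backgrounds were left out.

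Members nearer the edge of the set passed less often than those at the low end. All 28 members with a WT log2 density under -2 passed, as did 59 of the 82 between -2 and -1 and 15 of the 40 above -1. The median gene stood at -0.28 to -0.18 in WT, so those 40 were short of the cut of 1 log2 unit in WT too. Their lower rate is thus built into the cut and does not show a change in the order of genes. Ranked by Δ*cpc-3* density, the lowest 150 of the same 3948 genes held 95 members (63.3% of each list) and the lowest 500 held 129 (86.0% of the members and 25.8% of the 500). When the whole rule was applied to the Δ*cpc-3* libraries, 4690 genes were open to it and 61 members (40.7%) were among its lowest 150. Only 6 members lay above the median of the 3948 genes in Δ*cpc-3*.

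**Figure D3:**
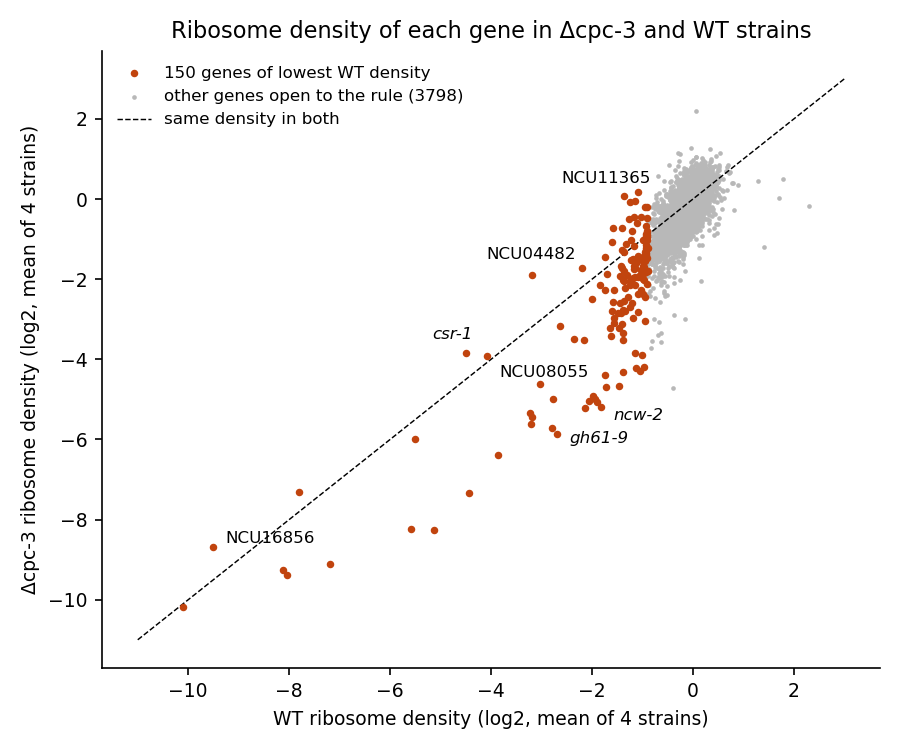
Log2 ribosome density of each gene in Δ*cpc-3* (vertical) and WT (horizontal), as means of 4 strains, for the 150 members (orange) and the other 3798 genes open to the rule (grey), with the dashed line at equal density. A band of members near *gh61-9* and *ncw-2* lies far below the line, and 31 of the 150, among them NCU11365 and NCU04482, lie above it.

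Of the 29 members with a symbol, 22 passed this test, and they belong to several parts of the cell. *kal-1* lay 4.35 ± 0.11 log2 units below the Δ*cpc-3* median (SE, adjusted p = 0.000116), and *csr-1*, the reporter locus, was at -3.30 ± 0.10 (adjusted p = 0.000136). The SE and p-value of *csr-1* come from strain means and do not measure its spread of 0 to 53.5 RPF TPM between Δ*cpc-3* libraries. Its value depended on replicate 3, as given above. Hydrolases and cell wall proteins, put together here after their values were seen, were as follows. *gh61-9*, a lytic polysaccharide monooxygenase of the former family GH61, lay 5.32 ± 0.17 log2 units below the Δ*cpc-3* median (SE, adjusted p = 0.000172). The value of *ncw-2*, a non-anchored cell wall protein, was -4.64 ± 0.20 (adjusted p = 0.000273), that of the glycoside hydrolase *gh13-1* was -3.77 ± 0.16 (adjusted p = 0.000268), and that of the anchored cell wall protein *acw-7* was -3.74 ± 0.24 (adjusted p = 0.000707). *gh16-1*, a glycoside hydrolase of family 16, was at -3.33 ± 0.14 (adjusted p = 0.000281). NCU04603, annotated as a Barwin-related endoglucanase, was at -4.11 ± 0.24 (adjusted p = 0.000596). Low density was no trait of all cell wall proteins. Of the 17 tested genes with *acw* or *ncw* symbols, 3 passed, near the share of all genes tested, 14.0%. In this family 5 were called at least 2-fold above the Δ*cpc-3* median. Of the 35 tested with *gh* symbols, 14 passed and 0 were called above. The share of all genes tested that was called above was not worked out, so the 5 and the 0 have no background beside them.

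Of the membrane and signalling genes, *nox-2*, an NADPH oxidase, was at -2.65 ± 0.08 (adjusted p = 0.000172), and *pls-1*, a tetraspanin, was at -2.96 ± 0.49 (adjusted p = 0.00642). In *Podospora anserina* their counterparts act in ascospore germination. *dpm*, for dolichol phosphate mannose synthase of the endoplasmic reticulum, was at -1.90 ± 0.09 (adjusted p = 0.000338). *mik-1*, the MAP kinase kinase kinase of the cell wall integrity pathway, was at -1.17 ± 0.08 (adjusted p = 0.000847), and *bni1*, a formin that builds actin cables, was at -1.18 ± 0.09 (adjusted p = 0.000999). The kinase genes *prk-8* and *stk-12* were at -2.15 and -1.33, the transcription factor gene *msn-1* at -1.40, and the peroxin genes *pex24* and *pex31* at -1.12 and -1.14, and all of these passed.

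The 7 members with a symbol that did not pass were all short of 2-fold below the median. Some still differed from it, such as *ro-3* (adjusted p = 0.0018) and *stk-58* (adjusted p = 0.0058). For *cia30* (adjusted p = 0.097) and *ham-6* (adjusted p = 0.38) no difference was called. *ro-3*, a dynactin subunit that serves nuclear movement, was at -0.95 ± 0.10, *tob55*, which inserts β-barrel proteins into the mitochondrial outer membrane, at -0.89 ± 0.16, and *stk-58* at -0.86 ± 0.14. *nit-2*, the GATA factor that activates nitrogen catabolic genes, was at -0.67 ± 0.08, *cia30*, an assembly factor of respiratory complex I, at -0.47 ± 0.20, and *ham-6*, a gene of hyphal fusion, at -0.17 ± 0.15. *acu-6*, the phosphoenolpyruvate carboxykinase gene of gluconeogenesis, was at 0.36 ± 0.11, above the median. With the deposited FPKM in place of the interval midpoint the last 2 changed sign, to 0.24 for *ham-6* and -0.39 for *acu-6*.

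**Figure D4:**
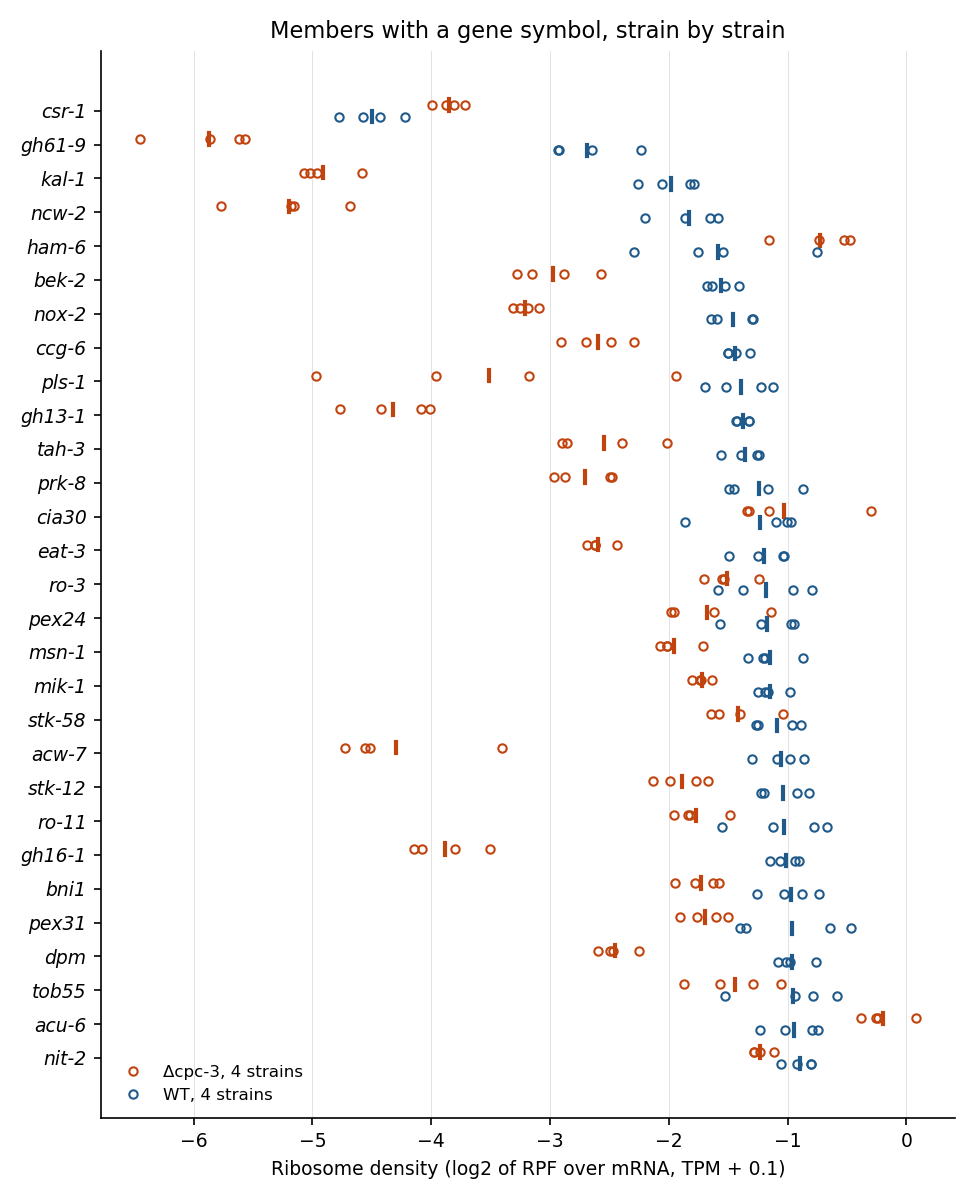
Log2 ribosome density of the 29 members with a symbol, ordered by WT density, with 1 circle for each of 4 Δ*cpc-3* strains (orange, upper) and 4 WT strains (blue, lower) and a bar for the mean. The Δ*cpc-3* circles of *gh61-9*, *ncw-2*, *kal-1*, *gh13-1*, *acw-7* and *gh16-1* lie well to the left of the WT circles, and those of *acu-6* lie right of them.

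The genotypes were next set side by side for the members. Because WT values chose these genes, what follows is a description and no test of the members. Relative to the median gene, 42 members (28.0%) were called lower and 8 (5.33%) higher in density in Δ*cpc-3* (limma, at least 2-fold), where 3.27% and 1.26% of the 6878 genes tested were called. Without centring on the median gene the members' split was 55 lower and 3 higher, where 8.05% and 0.276% of all genes tested were called. Without replicate 3 it was 41 and 4, and without the 3xWT-EDP background 4 members were called higher. The members' median log2 difference was -0.41, and that of all genes tested 0.00.

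Cell wall and hydrolase genes gave some of the largest differences. *gh61-9* had RPF levels of 0.966 to 5.05 TPM (median 1.91) in Δ*cpc-3* and 12.3 to 19.7 TPM (median 14.7) in WT. Its mRNA stood at 131, 163, 128 and 98.8 TPM in Δ*cpc-3* and at 115, 116, 71.7 and 101 TPM in WT. The RPF groups did not overlap and the mRNA groups did. Its log2 density difference was -2.86.

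For *ncw-2* the RPF level was 1.18 to 5.21 TPM (median 3.31) in Δ*cpc-3* and 11.3 to 23.1 TPM (median 16.6) in WT. Its mRNA level was 140, 134, 111 and 105 TPM in Δ*cpc-3* and 64.2, 89.3, 52.7 and 45.1 TPM in WT. Footprints were lower and mRNA higher in Δ*cpc-3*, and neither pair of groups overlapped. The log2 density difference of -3.05 was the lowest among the members.

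*acw-7*, whose terms name cell wall β-glucan synthesis, had 5.29 to 22.4 RPF TPM (median 13.2) in Δ*cpc-3* and 32.3 to 59.2 (median 46.4) in WT. Its mRNA level was 224, 307, 221 and 274 TPM in Δ*cpc-3* and 119, 96.6, 82.4 and 88.4 TPM in WT. *gh13-1* showed the same arrangement, with 10.6 to 26.8 RPF TPM (median 15.7) in Δ*cpc-3* and 40.5 to 66.2 (median 53.9) in WT. Its mRNA level was 350, 360, 306 and 343 TPM in Δ*cpc-3* and 169, 145, 134 and 108 TPM in WT, and for both genes neither pair of groups overlapped. *gh16-1* differed only in its footprints, which were 15.6 to 23.3 TPM (median 19.4) in Δ*cpc-3* and 98.4 to 156 TPM (median 129) in WT, beside 241, 333, 327 and 258 mRNA TPM in Δ*cpc-3* and 263, 283, 252 and 228 in WT.

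These members are few of their families. Of the 17 tested genes with *acw* or *ncw* symbols, all open to the rule, 2 are members. Of the 35 tested with *gh* symbols, 16 were open to the rule and 3 are members. Of all genes open to the rule, 3.80% are members. In the *gh* family 7 of 35 were called lower in density and 0 higher in Δ*cpc-3*, and in the *acw* and *ncw* family 3 of 17 lower and 1 higher. Of all genes tested, 3.27% were called lower and 1.26% higher. Both families were picked after values were seen, so the counts carry no test.

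*nox-2* had 3.34 to 10.9 RPF TPM (median 6.68) in Δ*cpc-3* and 8.79 to 16.8 (median 13.4) in WT, with mRNA at 58.6, 68.2, 63.6 and 59.2 TPM in Δ*cpc-3* and 36.7, 47.4, 30.7 and 32.5 TPM in WT. Its mRNA groups did not overlap and its RPF groups did. The density difference was -1.43 on the log2 scale. For *pls-1* the RPF level was 0 to 8.36 TPM (median 1.93) in Δ*cpc-3* and 4.58 to 11.0 (median 8.47) in WT, from 86 and 367 reads in all, and its density was not called different.

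The clock-controlled gene *ccg-6* had the most mRNA of the set. Its level was 1703, 1796, 1789 and 1507 TPM in Δ*cpc-3* and 1166, 1187, 1186 and 1007 TPM in WT. Its RPF level was 230 to 342 TPM (median 276) in Δ*cpc-3* and 360 to 452 TPM (median 422) in WT. Neither pair of groups overlapped, and its low density rests on 9310 RPF reads in Δ*cpc-3* and 19130 in WT. The density was 0.165 in Δ*cpc-3* and 0.369 in WT, a difference short of 2-fold after centring.

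*nit-2* showed how a member can keep its footprints. It had 60.0 to 77.9 RPF TPM (median 68.6) in Δ*cpc-3* and 57.9 to 76.6 (median 65.5) in WT. Its mRNA level was 152, 164, 156 and 161 TPM in Δ*cpc-3* and 129, 130, 113 and 121 TPM in WT. The RPF groups overlapped almost wholly and the mRNA groups did not. On this scale the median log2 mRNA difference of all genes tested was 0.32, so higher mRNA in Δ*cpc-3* is not particular to *nit-2*.

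**Figure D5:**
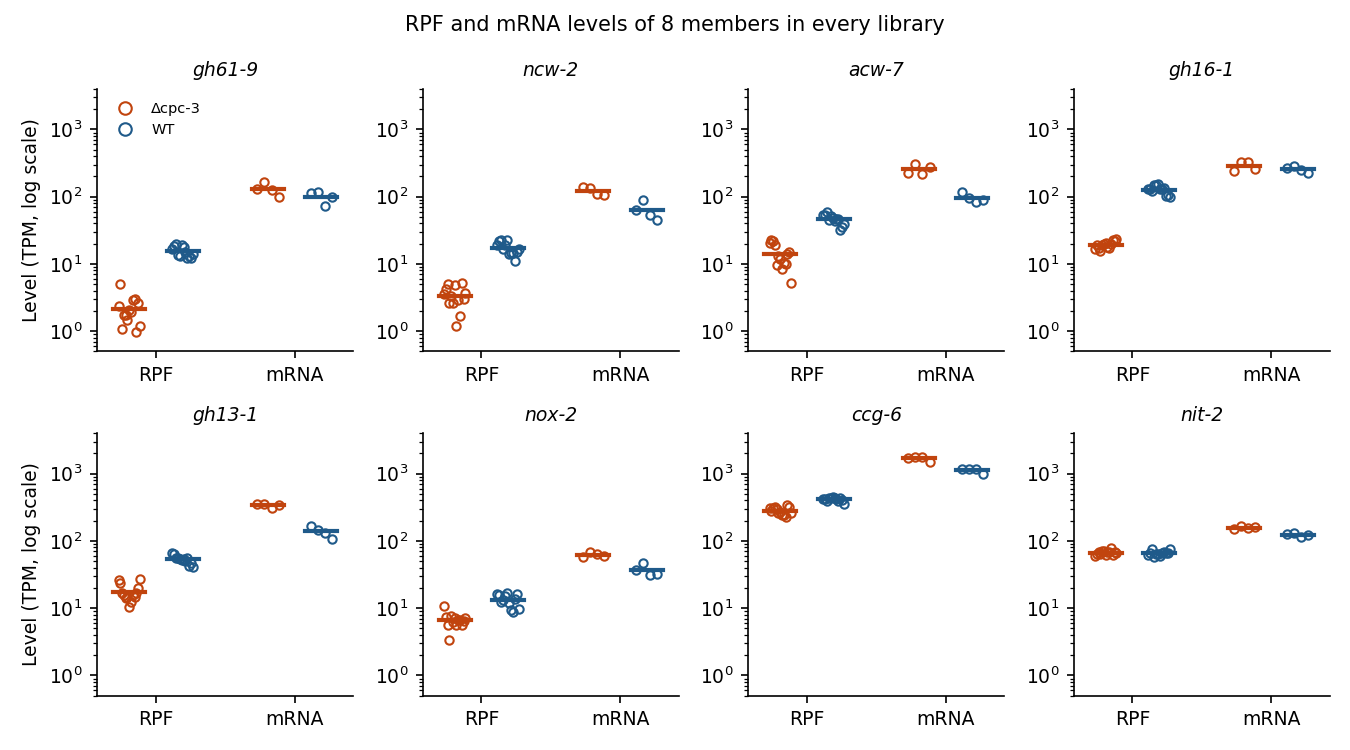
RPF level (13 Δ*cpc-3* and 12 WT libraries) and mRNA level (4 and 4 libraries) of 8 members in TPM on a log scale, with Δ*cpc-3* (orange) left of WT (blue) and a bar for the mean. For *ncw-2*, *acw-7* and *gh13-1* the RPF levels are lower and the mRNA levels higher in Δ*cpc-3*, and for *nit-2* the RPF levels overlap.

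Of the 8 members called higher in density, 3 were also higher in mRNA and 5 in RPF level, where 22.7% and 20.6% of all genes tested were called. This split too follows in part from the density call. NCU05277 had 699, 1421, 1420 and 1094 mRNA TPM in Δ*cpc-3* and 35.0, 47.3, 83.0 and 85.4 in WT. Its RPF level was 388 to 1825 TPM (median 1394) in Δ*cpc-3* and 17.9 to 37.1 TPM (median 28.2) in WT. In Δ*cpc-3* 1xWT-EDP, replicates 1 to 3 were at 472, 388 and 427 TPM and replicate 4 at 1773 TPM. The other Δ*cpc-3* strains were at 1312 to 1825 TPM. The density of NCU05277, 1.12 in Δ*cpc-3* and 0.472 in WT, was the highest of the 150 in Δ*cpc-3*. The groups of NCU05277 did not overlap in either measure. NCU11365 had 290, 331, 303 and 303 mRNA TPM in Δ*cpc-3* and 190, 229, 198 and 230 in WT. Its RPF level was 292 to 397 TPM (median 309) in Δ*cpc-3* and 60.7 to 106 TPM (median 81.9) in WT, and here too neither pair of groups overlapped.

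*acu-6* had 62.6 to 104 RPF TPM (median 78.6) in Δ*cpc-3* and 43.9 to 76.7 (median 59.3) in WT, and its mRNA was 104, 89.1, 80.1 and 85.0 TPM in Δ*cpc-3* and 100, 109, 121 and 128 in WT. Its density was 0.872 in Δ*cpc-3* and 0.518 in WT. *ham-6* had 3.98 to 25.4 RPF TPM (median 15.5) in Δ*cpc-3* and 6.01 to 14.1 (median 10.7) in WT, and these groups overlapped.

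The mRNA and RPF levels of the whole set were read in the same way. For mRNA, 87 members (58.0%) were called higher and 2 (1.33%) lower in Δ*cpc-3* (limma, adjusted p under 0.05), where 22.7% and 3.95% of all genes tested were called. The 2 lower ones were *csr-1* and NCU04482. Without the 3xOPT-EDP background 57 members were called higher. The median log2 mRNA difference was 0.75 for members, 0.11 for the other genes open to the rule and 0.32 for all genes tested. For RPF levels, 46 members (30.7%) were called lower and 29 (19.3%) higher, where 22.2% and 20.6% of all genes were called, and the members' median log2 difference was 0.00.

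Of the 42 members called lower in density, 35 were called higher in mRNA and 28 lower in RPF level, and 21 were both. A further 13 had more mRNA with no called difference in footprints, and 7 had fewer footprints with no called difference in mRNA. The remaining member, NCU09152, was called higher in both. Of all genes tested, 22.7% were called higher in mRNA and 22.2% lower in RPF level, whatever their density. Density is the RPF level over the mRNA level, so the split of these 42 follows in part from the call. The same split over all 225 genes called lower in density was not worked out.

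NCU03600 and NCU08055 show how unlike the members were. NCU03600 had 1295, 1633, 1575 and 1179 mRNA TPM in Δ*cpc-3* and 574, 636, 549 and 424 in WT, with an RPF level of 18.1 to 55.3 TPM (median 29.0) in Δ*cpc-3* and 49.2 to 73.3 TPM (median 56.8) in WT. Its mRNA groups did not overlap and its RPF groups did. NCU08055, with terms for the biosynthesis of macromolecules and nitrogen compounds, had 540, 1272, 1146 and 1027 mRNA TPM in Δ*cpc-3* and 144, 103, 111 and 100 in WT. Its RPF level was 27.8 to 85.1 TPM (median 64.3) in Δ*cpc-3* and 3.95 to 11.9 TPM (median 6.34) in WT. Replicates 1 to 3 of Δ*cpc-3* 1xWT-EDP, at 28.1, 49.4 and 27.8 TPM, were below all other Δ*cpc-3* libraries, replicate 4 among them. The mRNA and footprints of NCU08055 were both several times higher in Δ*cpc-3*, and its density was 0.0657 in Δ*cpc-3* and 0.0587 in WT.

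Of the genes in the 3 lists by function, 33 were open to the rule and 1 of them (3.03%) is a member, near the 3.80% of all genes open to it. None of the 4 tested genes listed for upstream open reading frames and none of the 18 listed for conidiation and development is a member, and of the 20 listed for the clock and light only *ccg-6* is. In Δ*cpc-3*, 2 of these 20 clock and light genes were called at least 2-fold below the median, and 0 of the 4 and 0 of the 18 were, beside 14.0% of all genes tested.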

How the data were processed

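Reads were mapped by the authors to coding regions. Each library has deposited FPKM (fragments per kilobase of CDS, scaled to depth), the bounds of an interval around each FPKM, and coverage, a signal that was not used. The submitters' processing notes name Bowtie2 and Cufflinks, and versions, genome build and strand setting are not given in the sources used here. Each file lists 9731 entries, of which 2 are reporters. The midpoint of the interval was used in place of the FPKM, scaled to 1000000 per library. The deposited FPKM differs from it by a step that depends on CDS length and is not described in the sources used here. After the same scaling, the median ratio of FPKM to midpoint over genes of at least 5 TPM was 1.68 to 2.30 in RPF and 1.30 to 1.48 in mRNA libraries for a CDS under 300 nt, and 0.415 to 0.575 and 0.435 to 0.486 for 1200 to 3000 nt. Every TPM printed refers to the midpoint. Where checked (bounds under 200 reads), all bounds were whole numbers of reads within 0.05 read, which gave the read numbers.

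The members and gene lists were chosen with earlier results of these data known. Tests used limma 3.58.1 in R 4.3.3 on log2 values with 0.1 added, with Benjamini-Hochberg adjustment over the 6878 genes with a mean mRNA level of at least 5 TPM over the 8 mRNA libraries. The density in Δ*cpc-3* was tested against the median gene of each strain, and a call needed both an adjusted p below 0.05 and 1 log2 unit or more. Genotypes were compared over 4 strains each, without pairing. RPF replicates are biological replicates per the methods, and each strain has 1 mRNA library, so p-values measure the spread over the 4 strains. The tests on density were tried on simulated densities with known changes and independent errors. The simulation held no differences between libraries of a strain, so it does not show how the tests behave with them. Plots and summaries used Python 3.11.15, pandas 2.3.3 and matplotlib 3.10.9.

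Named genes follow a rule that takes the 20 lowest members, the 5 nearest the limit on each side, members with a symbol, members called between genotypes and the extremes in Δ*cpc-3*. It gave 85 genes, and 40 were named by it, those with a symbol or annotated term first. NCU05277, NCU11365, NCU04482 and NCU09152, overlapping genes and the other genes at the limit were named after their values were seen. Lists by product words could not be applied, since the reference table holds symbols only. Functional terms came from the study's supplementary gene groups, and no sequences were used. Intervals of the authors are not used as errors, and limits from 3 reads cover counting error only.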

Additional observations from a re-analysis of the deposited data

Results flagged for a closer look

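Log2 densities of the named members were screened over the 4 strains of each genotype, 76 groups of 4, for a strain far from the other 3. Chance flags about 1 in 20 such groups, and 4 were flagged. In the Δ*cpc-3* 1xWT-EDP strain *acw-7* had -3.41, against -4.73 to -4.51 in the other 3 Δ*cpc-3* strains. In the same strain NCU16641 had -5.83, against -10.57 to -10.13, and this rests on 4 reads in all. NCU16306 had -3.16 in the Δ*cpc-3* 3xOPT-EDP strain, against -8.88 to -8.60, also from 4 reads. In the WT 3xWT-EDP strain *cia30* had -1.86, against -1.09 to -0.97 in the other WT strains.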

How the results depend on the processing

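Membership depended on the unit. With the deposited FPKM 2545 genes were open to the rule and 68 members met its level minimum and were kept. With a minimum of 50 TPM 53 did, which follows from the minimum alone, since densities do not change with it. Between 121 and 145 members were kept when single reporter backgrounds or replicates were left out, 145 with recovered reads or with RPF means weighted by reads, and 149 with 1 added. The 102 members called below the median in Δ*cpc-3* became 119 when only the 3948 genes open to the rule were tested, and 101 to 107 when reporter backgrounds or replicates were left out. Without replicate 3, 102 of the 107 were among the 102.

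The 8 members called higher in density became 5 with genes open to the rule only, 3 without centring, and 4 to 10 with backgrounds or replicates left out. Those lower were 28 to 43, mRNA calls 57 to 76 higher and 2 to 3 lower, and RPF calls 21 to 31 higher and 33 to 45 lower. With the deposited FPKM 41 members were lower and 8 higher in density, beside 200 and 177 of all genes tested, and 64 lower and 27 higher in RPF level. Of the values recomputed for named members in Δ*cpc-3*, 524 stayed on their side of the test and 8, of *ro-3*, *stk-58* and *tob55*, passed it in addition. The values of *ham-6* and *acu-6*, which were not called, changed sign with the deposited FPKM, as did *ham-6* without replicate 2 (0.02). Deviations from the group means correlated at -0.0186 to 0.0682 between strains with the same reporter, so the reporter was not taken as pairing them. With the reporter as a replicate block the members called were 32 lower and 5 higher in density, 66 higher and 2 lower in mRNA, and 28 higher and 43 lower in RPF level. Over all genes tested the block gave 91 lower and 33 higher in density, against 225 and 87 without it. With the replicate number as a block over single libraries, 37 members were called higher and 50 lower in RPF level.

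Density of members with few reads is limited by depth, and for those at 0 only an upper limit can be given. Each strain has 1 mRNA library, so its error enters every density of that strain. Whether reads with several matches were kept is not given in the sources used here, and genome sequence was not used here, so repeats within the members were not examined.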
